A study of Rattus norvegicus with 9 samples.

Results

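Tyrosine hydroxylase (Th) and 7 genes that act with it in catecholamine metabolism were followed in the rat supraoptic nucleus during water deprivation. Every probe set annotated to exactly 1 of the symbols Th, Ddc, Dbh, Gch1, Pts, Qdpr, Maoa and Maob was taken, which gave 13 of the 8799 probe sets in the table, between 1 and 4 for each of the 8 genes, out of 4736 gene symbols in the annotation. The rats were male, of the Sprague Dawley strain and 10 to 12 weeks old, and the groups were control, 1 day of dehydration and 3 days of dehydration, each with 3 one-colour Affymetrix arrays marked a, b and c in their titles. Nothing in the labels tells whether an array holds 1 animal or a pool, and p-values therefore refer to the spread from array to array, which may be technical.

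Th was chosen by its measured signal, which was higher than in control at both dehydration times, and the other genes as its pathway partners. Its values against control are therefore a description without a test, while its partners, and Th between the 2 times, were tested.

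The supraoptic nucleus holds the magnocellular neurons that make vasopressin and oxytocin and release them when the body loses water. Catecholamines are made from tyrosine: Th, the rate-limiting enzyme, turns tyrosine into DOPA with tetrahydrobiopterin as its cofactor, Ddc (aromatic amino acid decarboxylase) makes dopamine, and Dbh makes noradrenaline. Gch1 and Pts build the cofactor and Qdpr regenerates it, while the monoamine oxidases Maoa and Maob break the amines down. The noradrenaline that reaches this nucleus is supplied mainly by axons of brainstem neurons, whose cell bodies lie outside the dissected tissue.

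The Th promoter is shown because Th was the member chosen for its signal, and because it carries well known cyclic AMP response and AP-1 elements through which activity acts on the gene in other cells. The RefSeq window of Th (GRCr8, chr1:207508169-207508468, minus strand, 250 bases before to 50 after the annotated start) reads as follows, with an AP-1-like heptamer (TGATTCA) and the cyclic AMP response element (TGACGTCA) in capitals.
Th promoter: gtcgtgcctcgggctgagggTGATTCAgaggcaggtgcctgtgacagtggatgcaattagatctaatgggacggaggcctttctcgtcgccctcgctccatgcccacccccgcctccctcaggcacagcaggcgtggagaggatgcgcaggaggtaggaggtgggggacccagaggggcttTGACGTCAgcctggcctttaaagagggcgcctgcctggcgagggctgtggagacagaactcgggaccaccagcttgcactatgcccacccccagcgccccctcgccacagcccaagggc

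The response element lies 69 to 62 bases before the annotated start and the heptamer 230 to 224 bases before it. Both strands were searched in the 33469 promoter windows of the table, of which 10 belong to the 8 genes. The full element TGACGTCA was in 1.83% of all windows and, among the members, in that of Th alone. The heptamer TGATTCA was in 2.88% of all windows, and among the members in those of Th and Ddc. The shorter core TGACG, which is contained in the full element, was in 21.2% of all windows and in those of Th, Dbh, Gch1 and Maoa, and these windows are set side by side below with the core in capitals on whichever strand it lies. The matches describe letters and not binding.
Th (chr1:207508273-207508297, minus strand): agaggggcttTGACGtcagcctggc
Dbh (chr3:30886084-30886108, plus strand): ttccaacaggCGTCAgagatccatt
Dbh (chr3:30886144-30886168, plus strand): gatgtccatgCGTCAttagtgtcaa
Gch1 (chr15:22917504-22917528, minus strand): gcgagcgcctTGACGcaagaggctc
Maoa (chrX:8681357-8681381, minus strand): acccaaaccaTGACGgatctggaga

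Values are MAS5 signals, which condense the probes of a probe set into 1 number on a linear scale. Each array had nearly the same trimmed mean signal, at 100.1, and a median between 26.8 and 40.3. Control c and 1-day c had a compressed range, with highest signals of 2105 and 2239, against 3867 to 6295 on the other 7. Of the genes that define the tissue, Avp (vasopressin) ranged from 1622 to 5678 and Oxt (oxytocin) from 208.3 to 4356. The lowest values of both were on control c and 1-day c. On control c Oxt lay below the lateral hypothalamic peptides Hcrt (orexin, 844.4) and Pmch (melanin-concentrating hormone, 667.8). On 1-day c Oxt (272.0) lay below Hcrt (419.6) and above Pmch (148.0). Fold changes are differences in log2(signal + 4). Probe sets with a mean signal under 23.1 were left out of the test, which kept 5247; of the 13 members, 9 passed and 4 did not. In limma, 0 probe sets (0%) had an adjusted p under 0.05 in each of the 3 comparisons, while an unadjusted p under 0.05 was found for 53 at 1 day, 90 at 3 days and 96 between the times.

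Th gave higher signals on every dehydrated array than on any control array. Its probe set M10244_at read 166.3, 136.2 and 215.0 on control arrays a, b and c, 282.3, 227.2 and 336.9 after 1 day, and 255.5, 269.8 and 348.9 after 3 days. The lowest dehydrated value, on 1-day b, was above the highest control value, on control c. The group means were 172.5 ± 39.8, 282.1 ± 54.9 and 291.4 ± 50.3 (SD, n = 3), so that the signal was 1.63-fold the control level at 1 day and 1.69-fold at 3 days. Both comparisons use the same 3 control arrays.

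The spread of Th within a group followed the array letter. Array c was the highest of its group at every stage, and array b the lowest in control and at 1 day. Set against the control array of its own letter, Th stood at 1.68-fold on array a, 1.65-fold on b and 1.56-fold on c after 1 day. After 3 days the folds were 1.52 on a, 1.95 on b and 1.61 on c. All 6 differences pointed up. Without control c and 1-day c, the arrays of compressed range, the log2 difference was 0.74 at 1 day and 0.92 at 3 days, against 0.70 and 0.75 with all arrays.

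Between 3 days and 1 day Th did not pass the test: it was 291.4 at 3 days and 282.1 at 1 day, a log2 difference of 0.05 ± 0.27 (SE), with a 95% interval for the fold of 0.69 to 1.56 (limma adjusted p = 1.00). The order of the levels was thus 3 days, 1 day and control, of which the first pair overlapped. Th was a fairly bright probe set, at the 88.2 percentile of mean signal. When the tested probe sets were split by mean signal into 10 classes of equal size, that of Th held 525, of which 2 had a larger log2 difference than Th at 1 day and 3 did at 3 days, and their median difference was -0.02 and -0.04. These ranks restate how Th was chosen.

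**Figure D1:**
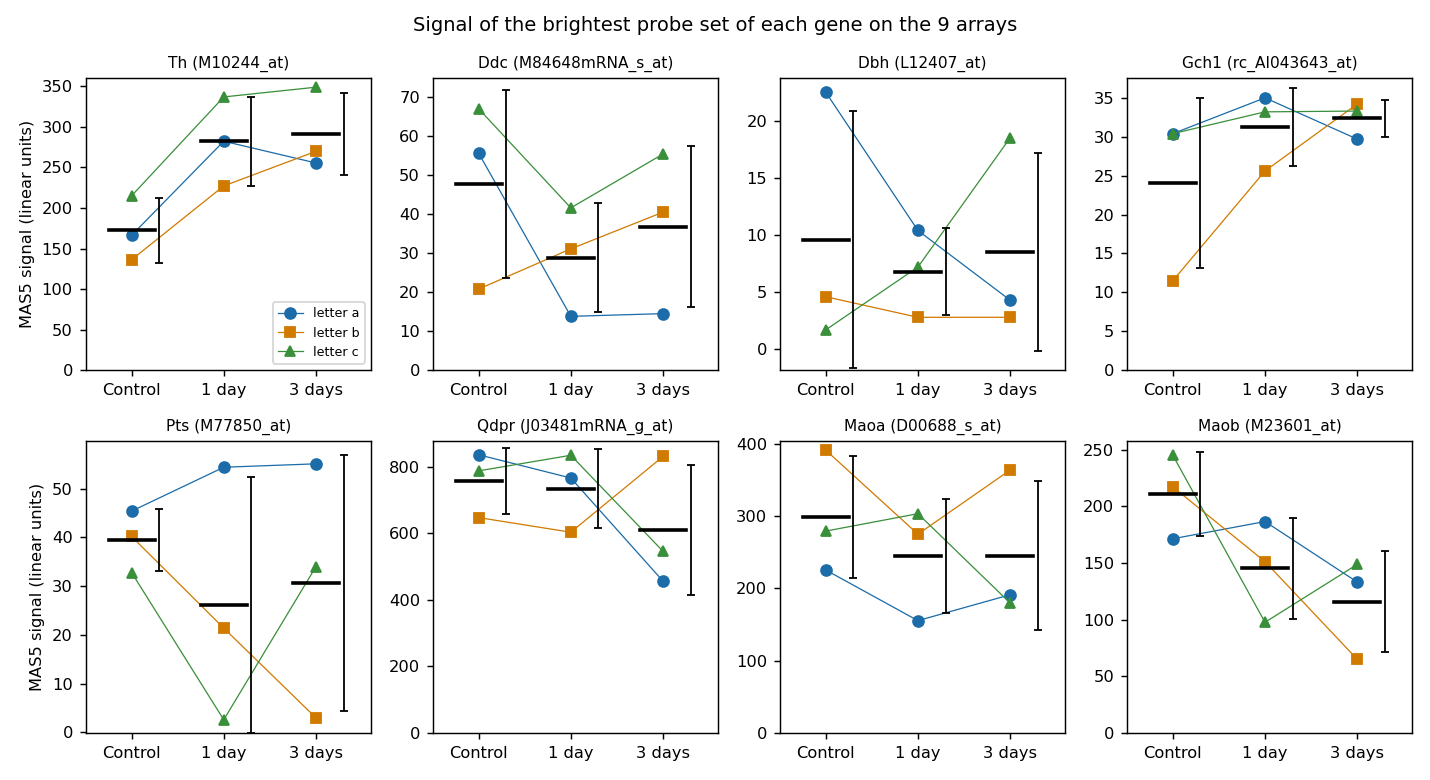
MAS5 signal (linear units, y axis) of the brightest probe set of each of the 8 genes in control, at 1 day and at 3 days of dehydration (x axis); points are arrays joined by replicate letter, thick bars are group means and thin bars are SD (n = 3). The 6 dehydrated arrays of Th lie between 227.2 and 348.9, above the control arrays at 136.2 to 215.0, while in the other genes the groups overlap except for Maob at 3 days.

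Of the enzymes downstream of Th, Ddc did not pass the test and Dbh was too dim to be tested. Ddc, which makes dopamine from DOPA, read 55.6, 20.8 and 67.0 in control, 13.8, 31.1 and 41.6 at 1 day and 14.5, 40.5 and 55.4 at 3 days. The groups overlapped, and within letters array b stood higher at both times while a and c stood lower. The log2 difference was -0.63 ± 0.58 at 1 day and -0.37 ± 0.58 at 3 days (SE; limma adjusted p = 1.00 for each). The 95% interval for the fold, 0.27 to 1.58 at 1 day and 0.32 to 1.89 at 3 days, leaves room for changes of either sign.

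Dbh, the enzyme that turns dopamine into noradrenaline, lay near the bottom of the scale and was not tested. It read 22.5, 4.6 and 1.7 in control, 10.4, 2.8 and 7.2 at 1 day, and 4.3, 2.8 and 18.5 at 3 days. Its highest and lowest values both lay in the control group.

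Among the cofactor genes, GTP cyclohydrolase (Gch1), which makes the first intermediate of tetrahydrobiopterin, had 4 probe sets and 1 that passed the filter. That probe set, rc_AI043643_at, read 30.4, 11.5 and 30.4 in control, 35.0, 25.6 and 33.2 at 1 day and 29.7, 34.2 and 33.3 at 3 days. Control b alone was low, and the other 8 arrays lay between 25.6 and 35.0. The log2 difference was 0.41 ± 0.43 at 1 day and 0.46 ± 0.43 at 3 days (limma adjusted p = 1.00 for each), and without control b it was 0.03 and 0.08.

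The other Gch1 probe sets (M58364_at, rc_AA943102_s_at and E03424cds_s_at) had mean signals of 11.1, 8.87 and 5.27. Across the 9 arrays the 4 Gch1 probe sets correlated with each other at r from -0.74 to 0.37. The probe sets thus disagreed, and no direction is given for the gene.

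Pts, the second enzyme of cofactor synthesis, read 45.4, 40.2 and 32.8 in control, 54.4, 21.4 and 2.6 at 1 day and 55.1, 3.0 and 34.0 at 3 days. Its dehydrated arrays ran from 2.6 to 55.1 and so covered the whole control range. The log2 difference was -1.01 ± 0.89 at 1 day and -0.78 ± 0.89 at 3 days (limma adjusted p = 1.00 for each). Both rest on 1 array: without 1-day c the first was -0.16, and without 3-day b the second was 0.14.

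Qdpr, the reductase that returns the spent cofactor to use, was the brightest member. Its probe set J03481mRNA_g_at read 836.3, 647.4 and 787.9 in control, 766.4, 603.4 and 834.8 at 1 day and 456.4, 831.2 and 546.2 at 3 days. At 3 days arrays a and c lay below all control arrays and array b above all but 1 of them. The log2 difference was -0.05 ± 0.27 at 1 day and -0.34 ± 0.27 at 3 days, with 95% intervals for the fold of 0.64 to 1.47 and 0.52 to 1.19 (limma adjusted p = 1.00 for each). A further probe set from the same messenger RNA entry, J03481mRNA_at, gave -0.03 ± 0.28 and -0.37 ± 0.28, and the pair correlated at r = 0.91 over the 9 arrays.

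Monoamine oxidase B stood lower on every array after 3 days, though it did not pass the test over all probe sets. Maob, the form found mainly in astrocytes and serotonin neurons, read 171.5, 217.3 and 245.2 in control, 186.7, 151.3 and 97.7 at 1 day and 133.3, 65.1 and 148.8 at 3 days. All 3-day arrays lay below all control arrays, while the 1-day arrays overlapped with control. The mean was 115.7 ± 44.5 at 3 days, against 211.3 ± 37.2 in control (SD, n = 3), a fold of 0.53 with a 95% interval of 0.31 to 0.92.

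The log2 difference of Maob at 3 days was -0.91 ± 0.36, with an unadjusted p of 0.0276 and an adjusted p of 1.00 in limma (0.873 with the letter as a block), so it did not pass. It stood lower in 3 of 3 letters, by log2 differences of -0.35 on a, -1.68 on b and -0.71 on c. Without 3-day b the difference was -0.56. At 1 day it was -0.56 ± 0.36 (limma adjusted p = 1.00), with array a slightly higher and b and c lower. That value was -0.31 without 1-day c and -0.20 without both arrays of compressed range, and the 3-day value without these was -0.80. In bulk tissue, fewer cells of a type and less RNA per cell cannot be told apart.

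Maoa, the form typical of catecholamine neurons, had 2 probe sets that correlated at r = 0.89 over the arrays. D00688_s_at read 225.6, 391.6 and 279.5 in control, 155.5, 275.2 and 303.6 at 1 day and 191.3, 364.0 and 180.0 at 3 days. S45812_s_at read 166.4, 275.3 and 269.3, then 144.3, 223.3 and 281.5, then 187.3, 299.4 and 201.3. In both, the groups overlapped and letter a was low in control and at 1 day.

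The log2 differences of the Maoa probe sets were -0.30 ± 0.36 and -0.14 ± 0.33 at 1 day, and -0.32 ± 0.36 and -0.04 ± 0.33 at 3 days (limma adjusted p = 1.00 for each). The 95% interval for the fold at 3 days ran from 0.46 to 1.39 for D00688_s_at and from 0.59 to 1.60 for S45812_s_at. Maoa and Maob are next to each other on the X chromosome in RefSeq, with no annotated protein-coding gene between them. Whether their differences at 3 days were unequal was not tested.

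**Figure D2:**
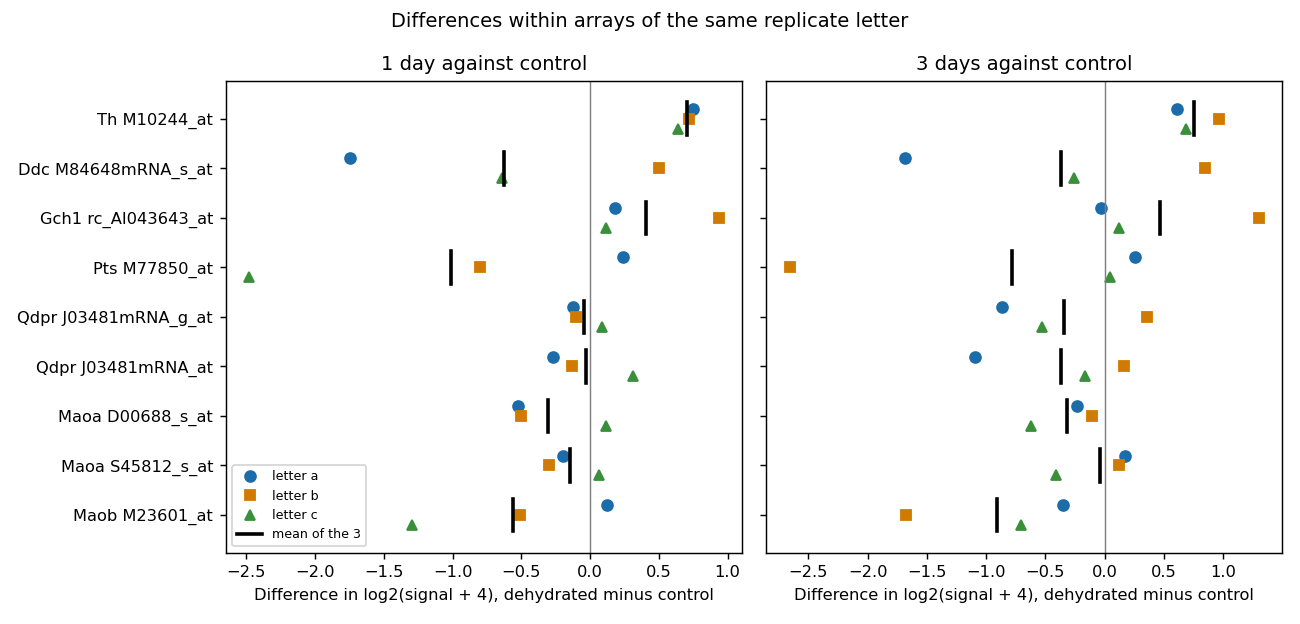
Difference in log2(signal + 4), dehydrated minus control, within arrays of the same letter (x axis) for the 9 member probe sets that passed the filter (y axis), at 1 day (left) and at 3 days (right); symbols are letters a, b and c and the black bar is their mean. Th lies between 0.61 and 0.97 for every letter at both times, and Maob lies below 0 for every letter at 3 days, between -1.68 and -0.35.

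Over the 8 partner probe sets tested, 1 was higher and 7 were lower than control at 1 day (median log2 difference -0.22), and likewise 1 and 7 at 3 days (median -0.36). Over all 5247 tested probe sets, 52.7% were higher and 47.3% lower at 1 day, and 51.7% higher and 48.3% lower at 3 days. Their median was 0.02 at each time. The Qdpr and Maoa pairs each count a gene more than once, and both comparisons share their controls. In limma 0 of the 8 passed in any comparison. At 1 day 0 of 8 had an unadjusted p under 0.05, where 0.572% of all tested probe sets did so with higher and 0.438% with lower values. At 3 days Maob did, 1 of 8, where the background was 1.07% higher and 0.648% lower.

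Groups without overlap were also few. At 1 day this held for 0 of the 8 partners, where 2.63% of all tested probe sets were higher and 1.58% lower without overlap. Th was among the higher ones, which is how it was chosen. At 3 days it held for Maob on the lower side, where the background was 3.01%, and again for Th on the higher side, where it was 4.73%. Between 3 days and 1 day it held for 0 of the 9 member probe sets, with a background of 3.05% higher and 2.67% lower.

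Between the 2 times no member passed. The partner probe sets differed by log2 values between -0.35 (Maob) and 0.26 (Ddc), with 4 higher and 4 lower at 3 days than at 1 day (50.1% and 49.9% of all tested probe sets), and 0 of the 8 had an unadjusted p under 0.05 in limma. Over all tested probe sets 0.877% had such a p with higher and 0.953% with lower values.

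**Figure D3:**
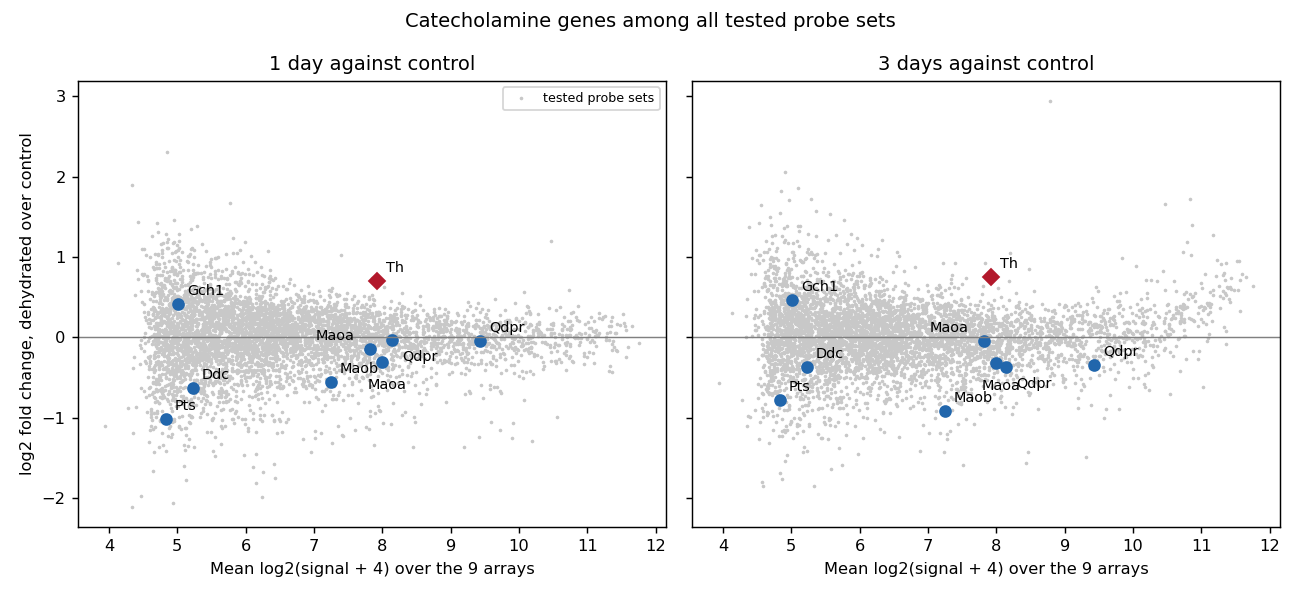
Log2 fold change, dehydrated over control (y axis), against mean log2(signal + 4) over the 9 arrays (x axis) for the 5247 tested probe sets (grey), with Th in red and the 8 partner probe sets in blue, at 1 day (left) and 3 days (right). Th sits at 0.70 and 0.75 above the bulk of probe sets of its brightness, Maob at -0.56 and -0.91 below it, and the dim Ddc, Pts and Gch1 lie in the wide part of the cloud.

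The rest of the pathway was taken from lists of 44 genes for cofactors, sister hydroxylases, storage, uptake, later degradation and transcription factors of catecholamine neurons. Of these, 24 had a probe set with 1 symbol and 15 passed the filter. In limma 0 of the 15 passed in any of the 3 comparisons, and 0 had an unadjusted p under 0.05, which is near the background given above for all tested probe sets (0.572% higher and 0.438% lower at 1 day, 1.07% and 0.648% at 3 days, 0.877% and 0.953% between the times). Without overlap, 1 of the 15 was lower at 1 day (1.58% of all), and 3 of the 15 were higher at 3 days (4.73% of all). At 1 day 5 were higher and 10 lower (median log2 difference -0.13), and at 3 days 11 were higher and 4 lower (median 0.02), against a median of 0.02 over all tested probe sets at each time.

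Among the further cofactor genes, sepiapterin reductase (Spr), which completes tetrahydrobiopterin, read 102.8, 123.7 and 119.8 in control, 79.2, 118.8 and 162.6 at 1 day and 126.3, 131.2 and 133.0 at 3 days. Its 3-day arrays lay just above all control arrays, by a log2 difference of 0.17 ± 0.29. Gchfr, the feedback regulator of Gch1, lay under the filter, between 4.0 and 20.5. Pnmt, which makes adrenaline from noradrenaline, ranged from 25.4 to 102.9 with differences of -0.41 ± 0.51 and 0.02 ± 0.51.

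The storage and uptake genes were dim. Slc18a2, the vesicular monoamine transporter of neurons, read 24.0, 4.7 and 11.3 in control, 27.6, 45.9 and 12.4 at 1 day and 31.3, 19.4 and 22.9 at 3 days, under the filter. The dopamine transporter Slc6a3 read 34.9, 35.4 and 30.5, then 15.6, 59.7 and 24.3, then 60.3, 47.2 and 38.6. Its 3-day arrays lay above its control arrays, with a log2 difference of 0.47 ± 0.45. The noradrenaline transporter Slc6a2 ranged from 29.2 to 55.8 on all arrays.

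Of the genes that act after the oxidases, the aldehyde reductase Akr1a1 was the brightest, at 1318, 1428 and 1427 in control, 1311, 1453 and 1194 at 1 day and 1583, 1456 and 2310 at 3 days (log2 difference 0.33 ± 0.24 at 3 days). Its 3-day arrays lay above its control arrays, as did 12.2% of the probe sets in the brightest of the 10 signal classes, to which it belongs, against 4.73% of all. The related reductase Akr1b1 was lower at 1 day without overlap, at 278.5, 222.4 and 170.5, against 289.8, 285.4 and 325.5 in control (-0.44 ± 0.27). The aldehyde dehydrogenases Aldh1a1, Aldh2 and Aldh3a2 and the sulfotransferase Sult1a1 had overlapping groups at both times, with log2 differences between -0.26 and 0.32.

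Among the transcription factors, Nr4a2 (Nurr1), which switches on Th in midbrain dopamine neurons, was dim, with a mean signal of 30.8, and did not pass the test. Its log2 difference was -0.79 ± 0.57 at 1 day and -0.90 ± 0.57 at 3 days, and its part in the Th result was not tested. It read 48.6, 54.0 and 28.1 in control, 38.4, 7.0 and 36.4 at 1 day and 31.9, 15.1 and 18.1 at 3 days, and the groups overlapped. Nr4a1, Creb1 and Crem, other factors that act on cyclic AMP or activity responsive genes, had overlapping groups at both times.

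The probe sets whose pattern over the 9 arrays was most like that of Th were sought among 4344 tested ones with 1 symbol. The 10 with the highest Pearson r were Txn2 (mitochondrial thioredoxin, r = 0.94), Ercc1 (a DNA repair nuclease subunit, 0.94), Pmpca (a mitochondrial protein processing peptidase, 0.93), Tpm3 (a tropomyosin, 0.90), Yif1a (a membrane protein of the secretory pathway, 0.89), Chkb (choline kinase beta, 0.88), Renbp (renin-binding protein, 0.87), Nfyc (a subunit of the factor NF-Y, 0.85), Fam234a (0.85) and Vamp1 (a synaptic vesicle protein, 0.84). Their r values lie at the top of 4344 comparisons over few arrays, and all share the control arrays and letters, so they are given without a test. Each r is that of a single probe set. Tpm3 had 4 other probe sets, Renbp 2, and Pmpca, Yif1a, Chkb, Nfyc and Vamp1 1 each, none of them among the 10.

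These probe sets differed in size of change. Txn2 read 507.3, 448.2 and 711.5 in control, 662.5, 701.3 and 852.0 at 1 day and 728.5, 707.0 and 864.5 at 3 days, with log2 differences of 0.43 and 0.48. Ercc1, with 0.31 at each time, lay between 195.2 and 225.3 in control and between 237.0 and 279.3 on the dehydrated arrays, without overlap. The largest differences among the 10 were those of Renbp, at 1.24 and 1.16. Renbp read 19.6, 16.4 and 66.4 in control and between 58.2 and 83.6 on the dehydrated arrays, so control c overlapped with them. Among the members, the brightest Gch1 probe set had the highest r with Th, at 0.76, a value that 0.76% of the 4344 exceeded. Control b was the lowest array of both, at 11.5 for Gch1 and 136.2 for Th. The other Gch1 probe sets had r values with Th between -0.56 and 0.53, and Maob stood at -0.53. Each r includes the differences from control by which Th was chosen.

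**Figure D4:**
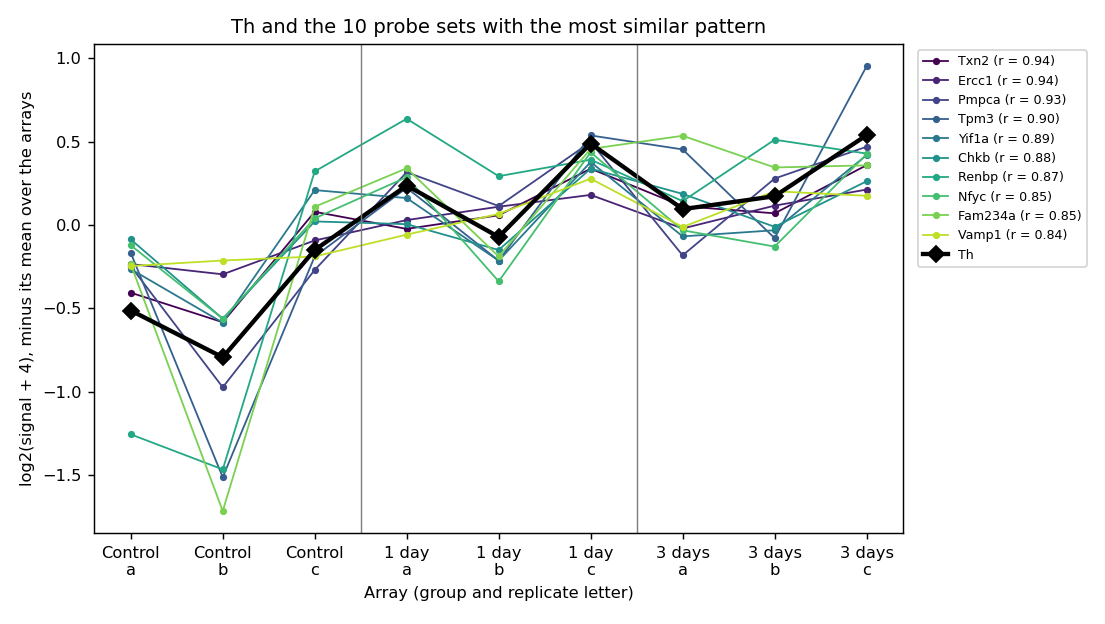
Log2(signal + 4) minus its mean over the arrays (y axis) for Th (black) and the 10 probe sets with the highest Pearson r with it (colours) on the 9 arrays (x axis, by group and letter). Control a and b are the lowest 2 arrays of Th, array c is the highest of each group for Th, and the 10 others, chosen for their likeness, follow Th in part and differ from it on single arrays.

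Markers of other cells were read beside these results as the summed signal of a marker list on each array. The list of neighbouring hypothalamic nuclei (9 of 12 genes on the array) had sums between 1286 and 2885 on the control arrays. The sums lay between 1406 and 2407 after 1 day and between 1198 and 2515 after 3 days, so the groups overlapped. The part of neighbouring nuclei in the Th result was not tested. The dopamine neuron list (8 of 9 genes) lay between 444.6 and 665.6 in control, between 560.7 and 657.5 after 1 day, and between 468.6 and 616.5 after 3 days. Its genes Slc18a2, Drd2 and Foxa2 were under the filter, while Slc6a3, Nr4a2, Pitx3, Ret and Dlk1 passed it, Dlk1 with the highest mean. Of these 5, Slc6a3 stood above control without overlap at 3 days, against 4.73% of all tested probe sets. At 1 day Slc6a3 overlapped with control, with a log2 difference of -0.19 ± 0.45. The other 4 overlapped with control at both times. At 3 days Ret was higher on average (0.22), and Nr4a2 (-0.90), Pitx3 (-0.10) and Dlk1 (-0.02) were lower. The part of such cells in the Th result was not tested. The noradrenaline neuron list (2 of 3 genes) lay between 30.7 and 61.0 in control, between 38.3 and 65.0 after 1 day, and between 43.0 and 54.2 after 3 days, with Phox2a under the filter.

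The magnocellular list (6 of 6 genes) had sums between 3379 and 6914 on the control arrays, between 3004 and 7646 after 1 day, and between 8803 and 11590 after 3 days. Avp and Oxt make up most of the sum, which moved with Th at 3 days and overlapped with control at 1 day. Of its genes, Avp, Oxt, Pdyn and Cck stood above control without overlap at 3 days, against 4.73% of all tested probe sets. In the brightest of the 10 signal classes, which holds Avp, Oxt and Pdyn, the share was 12.2%. Gal (log2 difference -0.26 ± 0.32) and Trh (-0.19 ± 0.53) were lower on average at 3 days and overlapped with control. The part of these cells in the Th result was not tested. On control c and 1-day c, where Avp and Oxt were lowest, Th was the highest of its group. On 3-day c, where Avp (5678) and Oxt (4356) were highest, Th (348.9) was the highest of its group as well. For Maob, the astrocyte list (8 of 10 genes) had sums between 5594 and 7530 in control, between 4746 and 8514 after 1 day, and between 6126 and 9169 after 3 days, with overlap. The serotonin neuron list (2 of 3 genes) overlapped too, between 136.8 and 226.3, between 141.8 and 237.1, and between 180.6 and 213.4 in the same order. In the astrocyte list Glul and S100b make up most of the sum. At 3 days 5 of its genes had higher and 3 had lower mean log2 values than control. Only Slc1a3 (0.44 ± 0.25), of the brightest class, stood above control without overlap then. The part of astrocytes in the Maob result was not tested.

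The vessel and blood list (9 of 14 genes) was lower at 3 days without overlap, at 1203 to 1463 against 1931 to 1975 in control, through Hbb (beta-globin), which makes up most of the sum. At 1 day it was higher, at 2014 to 2845. Hbb moved in the same direction as Maob at 3 days, and the part of blood in that result was not tested. Among the other tested genes of the list, Pecam1 (0.44), Ocln (0.47) and Acta2 (0.48) had higher mean log2 values at 3 days than in control. Flt1, Pdgfrb and Alas2 had lower ones, and all of these overlapped with control. The oligodendrocyte, microglia and fibroblast lists are given among the other observations.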

How the data were processed

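RNA of 9 supraoptic nucleus samples was measured on 1-colour Affymetrix arrays. The deposited values are linear MAS5 intensities per the submitters' notes on processing, without a version. Of the 8799 probe sets in the table, 59 are Affymetrix controls. Of the other 8740, 7006 have 1 symbol in the platform annotation, 308 several and 1426 none; 6985 of the 7006 matched RefSeq (GRCr8) by gene ID, and 0 symbols differed. Promoter sequences, found for all 8 genes, are from RefSeq, build GRCr8.

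From the intensities log2(signal + 4) was computed, and probe sets with a mean under the 40th percentile (23.1) were left out. All 9 arrays entered a fit of 3 group means in limma 3.58.1 (R 4.3.3), with an intensity trend and two-sided moderated tests adjusted by Benjamini-Hochberg over 5247 probe sets, at a threshold of 0.05. The code was tested on simulated data. The members and gene lists were chosen with earlier results of these data known. All member probe sets are named; other pathway genes are read from their brightest probe set with 1 symbol, and the 10 probe sets most like Th by Pearson r. Alternatives were other pseudocounts, filters and scalings, no trend, a fit restricted to the compared groups, omission of each array, and a block for the replicate letter.

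The letters pair the arrays: deviations from group means correlated in all 9 same-letter pairs (r from 0.17 to 0.47), and from -0.33 to 0.12 in 18 others. What the letter stands for is not stated. The SE values and intervals given above are from the fit without the letter. With the letter as a block the SE of Th was 0.17, against 0.27 without it. In limma with that block, the lowest adjusted p of the 8 partners was 0.958 at 1 day, 0.873 at 3 days and 0.799 between the times. The precision is limited by 3 arrays a group. Figures used Python 3.11.15 and matplotlib 3.10.9.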

Additional observations from a re-analysis of the deposited data

How the results depend on the processing

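The counts of probe sets called were 0 in each comparison under all 19 alternatives, with the replicate block as without it; unadjusted p values under 0.05 numbered 53, 90 and 96 (1 day, 3 days, and between the times), and 136, 270 and 275 with the replicate block. With 1 array left out these numbers ran from 38 (without control b) to 181 (without 1-day a) at 1 day, from 60 (without control c) to 151 (without control a) at 3 days, and from 80 (without control a or 3-day c) to 321 (without 1-day a) between the times. They were 112, 163 and 203 without a filter and 22, 50 and 56 with the 60th percentile filter. Of the 504 alternative values of the 27 member results, 466 were tested and 0 of these had an adjusted p under 0.05; Th against control has no p. The log2 difference changed sign in 31 of the 504; the cause was not tested. With the 60th percentile filter Ddc, Gch1 and Pts were not tested. Quantile normalization turned Maoa S45812_s_at at 3 days to 0.0080 and Maoa D00688_s_at between the times to 0.039. Omitting control c and 1-day c together, decided once the data were known, gave 0.066 and 0.16 for these, and -0.62 for Pts between the times.

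The other sign changes came with 1 array left out. At 1 day the range was -0.14 to 0.15 for Qdpr J03481mRNA_at, -0.16 to 0.087 for Qdpr J03481mRNA_g_at and -0.38 to 0.12 for Maoa S45812_s_at. At 3 days it was -1.40 to 0.14 for Pts, -0.83 to 0.12 for Ddc and -0.27 to 0.086 for Maoa S45812_s_at. Between the times it was -0.094 to 0.19 for Th, -0.60 to 0.0043 for Maob, -0.62 to 1.15 for Pts, -0.13 to 0.75 for Ddc, -0.068 to 0.13 for Gch1, -0.34 to 0.16 for Maoa D00688_s_at and -0.16 to 0.32 for Maoa S45812_s_at. Th stayed above control in every alternative, by 0.55 to 0.87 at 1 day and 0.60 to 0.92 at 3 days, a direction that its choice fixes.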

Other observations

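The remaining marker lists were read in the same way. Oligodendrocyte genes (8 of 10 on the array) had sums between 5288 and 8243 on control arrays, between 4457 and 8629 after 1 day, and between 3900 and 8513 after 3 days. Microglia genes (7 of 10) lay between 340.9 and 452.5 in control, between 430.5 and 608.7 after 1 day, and between 465.3 and 482.0 after 3 days, so that the 3-day sums lay above control. Fibroblast and meningeal genes (6 of 6) lay between 636.9 and 807.0, between 565.6 and 917.4, and between 550.5 and 930.2 in the same order. In the microglia list C1qb and C1qc make up most of the sum. The 4 tested genes had higher mean log2 values at 3 days than in control. Only C1qc did so without overlap, against 4.73% of all tested probe sets. Aif1, under the filter, read 34.0, 22.3 and 18.3 in control and 26.5, 13.7 and 3.4 at 3 days.

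Orexin (Hcrt) and melanin-concentrating hormone (Pmch), peptides of the lateral hypothalamus next to the nucleus, were lowest on array b in control, as Th was. Hcrt read 548.8, 161.3 and 844.4 in control, 593.9, 303.3 and 419.6 at 1 day and 392.5, 301.4 and 394.8 at 3 days. Pmch read 268.0, 50.8 and 667.8, then 370.3, 140.7 and 148.0, then 209.8, 102.4 and 544.4. Gata3, a factor of noradrenaline neurons that lay under the filter, read 32.3, 28.6 and 28.8 in control, 28.3, 22.9 and 3.1 at 1 day and 15.2, 11.3 and 16.7 at 3 days. It lay below control without overlap at both times, at 1 day only just (28.3 against 28.6). Of all tested probe sets, 1.58% at 1 day and 3.01% at 3 days were lower without overlap. Gata3 was singled out after its values were seen.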
